A study of Mus musculus with 2 samples.

Results

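The genes described here are the tumour necrosis factor (TNF) superfamily ligands, their receptors and the caspases, chosen by symbol: every gene named Tnfrsf, Tnfsf or Casp followed by a number, with Fas, Fasl, Tnf, Lta, Ltb and Ltbr. The rule took 49 genes of the 55468 in the deposited table: 22 receptor genes, 16 entries under ligand symbols and 11 under caspase symbols. The ligand entry Tnfsf13os is an antisense RNA gene and not a ligand. The caspase entry Casp16 is annotated as a polymorphic pseudogene. RNA had been sequenced from KPC2, a mouse pancreatic cancer cell line, with 1 library of wild type cells that received no drug and 1 library of gemcitabine-resistant cells kept long term in medium with 260 ng/mL gemcitabine. Gemcitabine is a cytidine analogue that blocks DNA synthesis, and medium and serum were otherwise shared. The labels do not say whether the resistant cells are 1 clone. What the drug does while present and what the cells keep without it cannot be told apart.

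TNF superfamily ligands bind as trimers to receptors on the cell surface. Some receptors, such as Fas, the first TNF receptor and the TRAIL receptor, carry a death domain inside the cell, through which FADD and caspase-8 can be brought together to start apoptosis. Other receptors bind TRAF proteins and lead to NF-kB and stress kinases instead. Caspases are cysteine proteases made as inactive precursors: initiator caspases are activated on such platforms and cleave executioner caspases, which dismantle the cell. Inflammatory caspases act in the response to microbes, where Casp1 and Casp4 cleave gasdermin D, whose fragment opens pores in the membrane.

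Values are FPKM, fragments per kilobase of transcript scaled to library size, so levels may be compared between genes. With 1 library per group there was no spread between replicates and no test, and each difference describes these 2 libraries. The difference between libraries was taken as log2((resistant FPKM + 1)/(wild type FPKM + 1)), called the log2 ratio, and a gene was taken as measured if either library reached 1 FPKM. A log2 ratio of 1 or more, or of -1 or less, is called 2-fold. Ratios of the FPKM values themselves are given with a 95% interval for counting error, worked out from the number of fragments behind each value. Those intervals say nothing of the variation between cultures. Of 7 markers of ductal epithelium, the keratin genes Krt8, Krt18 and Krt19 stood between 1123 and 1864 FPKM over the libraries and Cdh1 at 206 and 164 FPKM, while Epcam was near 0, at 0.21 and 0.10 FPKM. The other 2 were past 2-fold in opposite directions: Krt7 stood at 7.56 FPKM in wild type cells and 32.6 FPKM in the resistant library, and Sox9 at 8.19 and 1.88 FPKM. The part of these marker differences in the values of the family was not tested.

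The 3 inflammatory caspase genes lie next to each other on chromosome 9, in the order Casp1, Casp4 and Casp12 on the plus strand of GRCm38, at 5298517 to 5307265, 5308828 to 5336783 and 5345430 to 5373032. All 3 had a higher value in the resistant library, and Casp4 had the highest ratio among the 49 genes. Their promoter windows from RefSeq (GRCm38.p6), 250 bases before to 50 after the start, are shown because these neighbours differed in the same direction. Capitals mark matches to any of the motifs searched on both strands: the NF-kB site, by name, the ISRE core GAAANNGAAA, the STAT site TTCNNNGAA, the AP-1 site TGANTCA, the C/EBP-ATF site TTGCATCA and the E-box CACGTG.
Casp1, plus strand, chr9:5298267-5298566: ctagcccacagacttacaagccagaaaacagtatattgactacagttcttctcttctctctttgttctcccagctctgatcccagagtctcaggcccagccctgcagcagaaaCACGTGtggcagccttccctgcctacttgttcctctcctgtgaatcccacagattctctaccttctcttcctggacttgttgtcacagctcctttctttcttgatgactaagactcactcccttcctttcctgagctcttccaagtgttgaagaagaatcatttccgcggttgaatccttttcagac
Casp4, plus strand, chr9:5308599-5308898: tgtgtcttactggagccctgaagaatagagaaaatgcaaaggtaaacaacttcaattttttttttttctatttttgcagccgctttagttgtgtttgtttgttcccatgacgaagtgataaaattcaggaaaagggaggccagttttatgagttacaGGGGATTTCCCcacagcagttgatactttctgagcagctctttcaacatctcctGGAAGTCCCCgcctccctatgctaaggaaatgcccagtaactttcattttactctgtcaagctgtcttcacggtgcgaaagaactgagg
Casp12, plus strand, chr9:5345226-5345525: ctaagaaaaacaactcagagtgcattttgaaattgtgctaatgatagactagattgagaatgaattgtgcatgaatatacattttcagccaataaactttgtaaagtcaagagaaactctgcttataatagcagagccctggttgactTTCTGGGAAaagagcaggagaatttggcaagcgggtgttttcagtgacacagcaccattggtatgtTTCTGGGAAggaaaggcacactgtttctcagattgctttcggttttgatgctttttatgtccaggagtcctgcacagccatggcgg

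In the Casp4 window the capitals are 3 NF-kB matches in 2 places, since GGGGATTTCC and GGGATTTCCC overlap, beginning 93 and 92 bases before the start, and GGAAGTCCCC begins 39 bases before it. An NF-kB match was present in 8.46% of the 32851 promoter windows of all genes and in 6 of the 43 windows of the family (14.0%), of which Casp4 has 2 overlapping ones. The other windows belong to Ltb, Tnfrsf8 and Tnfrsf25, listed at 0 in both libraries, and to Tnfrsf9. A Tnfrsf9 window holds the same overlapping pair of matches as Casp4, and Tnfrsf9 stood at 2.25 FPKM in wild type cells and 2.24 FPKM in the resistant library. Whether any of these sites acts on its gene was not tested. The Casp12 window holds TTCTGGGAA, a STAT match, 102 and 36 bases before the start, a motif found in 8.30% of all windows and in 10 of the 43 family windows (23.3%). The Casp1 window holds an E-box 137 bases before the start, as do 7.15% of all windows and 7 of the 43 family windows (16.3%). Windows were found for 38 of the 49 genes.

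Casp4, which encodes the mouse caspase that senses bacterial lipopolysaccharide in the cytosol and cleaves gasdermin D, stood at 0.06 FPKM in wild type cells and 6.58 FPKM in resistant cells. The log2 ratio was 2.84. More cells with Casp4 RNA and more of it per cell cannot be told apart in bulk RNA. The wild type value rests on about 1.80 fragments and the resistant value on about 194, so the FPKM ratio of 111.7 has a counting interval of 28.7 to 1109. No transcript of another annotated gene shared 200 or more bases at 90% identity or more with Casp4. Casp1, which matures interleukin-1 beta and interleukin-18, stayed under 1 FPKM in both libraries, at 0.17 in wild type cells and 0.55 in resistant cells, a ratio of 3.16 with an interval of 1.16 to 10.2. Casp12 was lower still, at 0.05 and 0.43 FPKM (about 2.75 and 24.7 fragments), a ratio of 9.26 with an interval of 2.71 to 52.8. The next protein-coding genes on either side were listed at 0 or near it: Gria4 was at 0 in both libraries and Pdgfd at 0 and 0.02 FPKM, and the nearest measured genes were Msantd4 (19.1 in wild type cells, 12.9 in the resistant library) and Dync2h1 (0.59 and 1.40).

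Inflammatory caspases are plentiful in myeloid cells, whose markers were read for that reason. Of 6 myeloid markers, Cd68 (1.17 FPKM in wild type cells, 5.48 in the resistant library) and Lyz2 (0.36 and 1.53) were higher in the resistant library, and Cd14 was lower (36.8 and 25.7). The defining markers Adgre1 (0.05 and 0 FPKM), Itgam (0.01 and 0) and Csf1r (0.03 and 0.03) were near 0 in both libraries. The list summed to 38.4 FPKM in wild type cells and 32.7 FPKM in the resistant library. Most of that sum was Cd14 in each library, so it follows Cd14 and not Cd68 or Lyz2. Of 6 T and NK cell markers 5 were listed at 0 in both libraries, the pan-leukocyte gene Ptprc being at 0 and 0.23 FPKM, and all 3 B cell markers were listed at 0. The part of Cd68- and Lyz2-bearing cells in the Casp4 value was not tested.

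**Figure D1:**
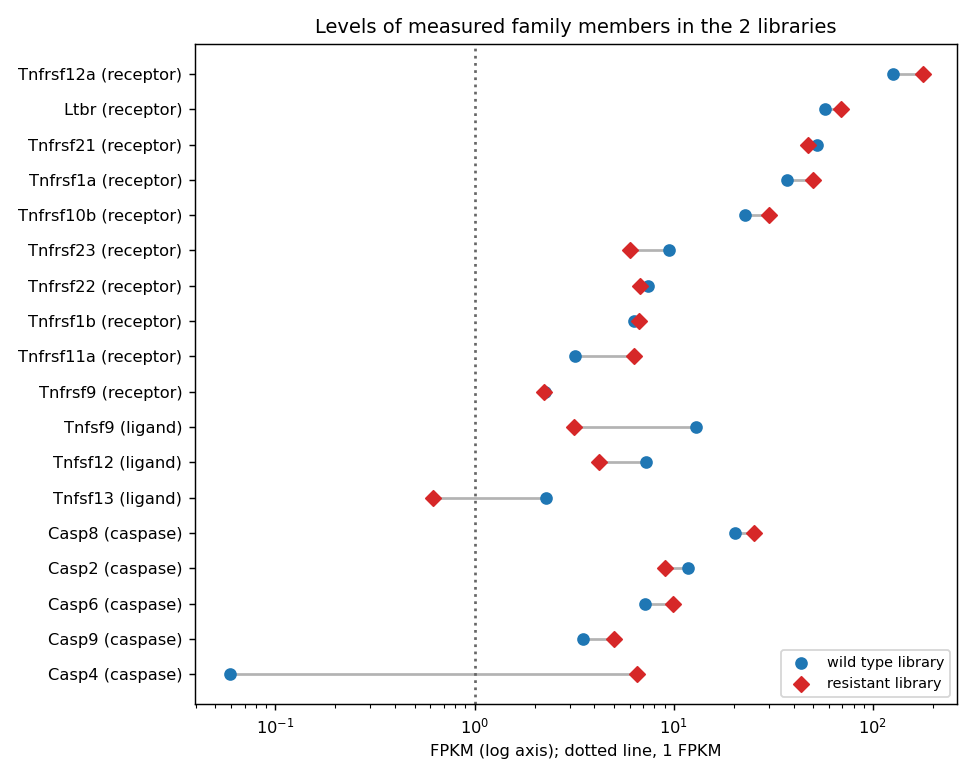
FPKM (log axis) of 18 of the 20 measured family genes in the wild type library (circles) and the resistant library (diamonds), by kind of gene, with 1 library per group and no error bars. Casp4 stands at 0.06 and 6.58 FPKM and Tnfsf9 at 13.0 and 3.17 FPKM, and the 10 receptors all lie within 2-fold.

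Of the 49 genes, 20 were measured and 29 were under 1 FPKM in both libraries, of which 14 were listed at 0 in both. Over all 55337 gene symbols, 43144 were under 1 FPKM in both libraries, of which 33706 were listed at 0 in both. Among the 20, Casp4 alone was at least 2-fold higher in the resistant library, where 7.90% of all 12193 measured genes were. Tnfsf9 and Tnfsf13 were at least 2-fold lower, where 8.37% of all measured genes were. These 1 of 20 (5%) and 2 of 20 (10%) are close to the share among all genes, so the count is no result about the family. Its median log2 ratio was 0.17, beside 0.02 for all measured genes. The authors' deposited table also gives a comparison of the libraries made by the authors, which called 0.404% of the 13850 genes it tested. Of the 49 genes here, the authors' deposited table has 25 as tested and 0 as called.

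Among death domain receptors, Tnfrsf21, a receptor also known as DR6, stood at 52.5 FPKM in wild type cells and 47.0 FPKM in the resistant library. Tnfrsf1a, the main receptor for TNF, stood at 37.2 FPKM in wild type cells and 49.7 FPKM in the resistant library, a ratio of 1.34 with a counting interval of 1.26 to 1.42. Tnfrsf10b, the only mouse TRAIL receptor with a death domain, stood at 22.8 FPKM in wild type cells and 30.2 FPKM in the resistant library, a ratio of 1.32 (interval 1.24 to 1.41). Among other genes, Brca2 (4.65 FPKM in wild type cells, 1.74 in the resistant library) shares 325 bases with Tnfrsf10b at 92.3% identity. The value of Tnfrsf10b may therefore share fragments. Tnfrsf21, Tnfrsf1a and Tnfrsf10b were all readily detected in both libraries and lay within 2-fold. Fas, the receptor for Fas ligand, was under 1 FPKM in both, at 0.83 in wild type cells and 0.65 in the resistant library (about 26.3 and 19.9 fragments), and its interval of 0.41 to 1.45 for the ratio included 1. Tnfrsf25, or DR3, was listed at 0 in both.

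A list of 6 transcription factors known to act on death receptor genes was read beside the receptors. Their log2 ratios were all larger in size than those of the 3 measured death domain receptors. Whether any of the 6 acts on those 3 genes in these cells was not tested. Ddit3, which encodes CHOP, a known activator of Tnfrsf10b, stood at 12.2 FPKM in wild type cells and 187 FPKM in the resistant library, and Atf4, its known upstream activator, at 164 and 392 FPKM. Trp53, which acts on Fas and Tnfrsf10b, stood at 82.0 and 50.0 FPKM. Rela, the NF-kB subunit gene, was lower in it, at 40.3 in wild type cells against 13.8 FPKM, a log2 ratio of -1.48. In all, 3 of these 6 factors were at least 2-fold higher and 1 lower, where 7.90% and 8.37% of all measured genes were. The 6 were chosen with earlier results of these data known, so this count is not independent evidence. None of the 3 measured death domain receptors was past 2-fold, and at those shares a count of 0 among 3 genes is no result about them.

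Decoy receptors bind a ligand without signalling. Tnfrsf22 and Tnfrsf23, the mouse decoys for TRAIL, stood at 7.47 and 9.50 FPKM in wild type cells and at 6.79 and 6.0 FPKM in resistant cells. Their transcripts share 91.0% identity over 2174 bases and both lie in 1 locus of the authors' table with Tnfrsf26, so how fragments were divided between them is uncertain. Among other genes, Slc25a20 (14.6 FPKM in wild type cells, 14.0 in the resistant library) shares 227 bases with Tnfrsf22 at 96.5% identity. Tnfrsf11b, or osteoprotegerin, the soluble decoy for RANKL, was listed at 0 in both libraries.

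Of the receptors that work mainly through TRAF proteins, Tnfrsf12a had the highest level. It encodes Fn14, the receptor for TWEAK, and stood at 126 FPKM in wild type cells and 178 FPKM in the resistant library, a ratio of 1.42 with an interval of 1.34 to 1.49. It was second of the 20 genes in the wild type library and the first in the resistant one. Ltbr, the lymphotoxin beta receptor, which feeds the non-canonical NF-kB pathway, stood at 57.1 FPKM in wild type cells and 68.9 FPKM in the resistant library. Tnfrsf11a, which encodes RANK, had the highest ratio of any receptor, with 3.21 FPKM in wild type cells and 6.35 FPKM in the resistant library, a ratio of 1.98 with an interval of 1.74 to 2.25 that reaches past 2. On the log2 ratio it was 0.80, short of 2-fold. Tnfrsf1b, the second TNF receptor, stood at 6.34 and 6.69 FPKM, and Tnfrsf9, or 4-1BB, at 2.25 and 2.24 FPKM. Their intervals both held 1, 0.94 to 1.19 for Tnfrsf1b and 0.75 to 1.32 for Tnfrsf9. The locus the authors gave Tnfrsf9 holds 7 other genes, among them Vamp3 and Camta1, so its value may share fragments.

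The other 9 receptors outside the death domain and decoy groups were under 1 FPKM in both libraries. Tnfrsf18, or GITR, stood at 0.73 FPKM in wild type cells and 0.23 in the resistant library, where an antisense gene, Gm16008, overlaps its exons and stood at 0.74 and 0.14 FPKM. Tnfrsf14 (HVEM) stood at 0.16 and 0.17 FPKM and Tnfrsf26 at 0.20 and 0.13. Tnfrsf4 (OX40) was at 0.19 FPKM, about 4.0 fragments, in wild type cells and listed at 0 in the resistant library. Tnfrsf19 was listed at 0 in wild type cells and at 0.01 FPKM, about 1.02 fragments, in the resistant library. The lymphocyte receptors Tnfrsf8, Tnfrsf13b, Tnfrsf13c and Tnfrsf17 were listed at 0 in both.

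Of 10 measured receptors, 6 had a log2 ratio above 0 and 4 below (5 and 5 with the resistant library rescaled to the same upper quartile, where Tnfrsf1b was at -0.01), from -0.59 for Tnfrsf23 to 0.80 for Tnfrsf11a, and none differed by 2-fold. Their median was 0.17. Over all 12193 measured genes 6188 lay above 0 and 6005 below, so the split is no result about receptors. Of 9 further TNF superfamily genes under other symbols, Relt alone was measured, at 0.71 FPKM in wild type cells and 1.92 FPKM in the resistant library. Cd40, Ngfr, Edar, Cd40lg and Cd70 were listed at 0 in both libraries. Cd27 (0 and 0.30 FPKM), Eda2r (0 and 0.21) and Eda (0.03 and 0) stayed under 1 FPKM.

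Of 16 entries under ligand symbols, 13 were under 1 FPKM in both libraries, as were 43144 of all 55337 gene symbols. The shares are close, so this count is no result about ligands. The 3 that were measured were all lower in the resistant library. Over all 12193 measured genes 6005 had a log2 ratio below 0, and 3 genes are too few for a result about ligands. Tnfsf9, which encodes 4-1BB ligand, a co-stimulator of T cells, stood at 13.0 FPKM in wild type cells and 3.17 FPKM in the resistant library. The log2 ratio was -1.75, and the wild type FPKM was 4.10 times the resistant FPKM with an interval of 3.22 to 5.27, from about 351 and 82.8 fragments. A non-coding gene on the opposite strand, Gm11110, overlaps 192 bases of its exons and stood at 1.60 FPKM in wild type cells and 2.23 FPKM in the resistant library. Next to it on chromosome 17, Cd70 and Tnfsf14, ligand genes of the same family, were listed at 0 in both libraries. The nearest measured protein-coding genes on either side were all lower in the resistant library. With wild type first, they were Slc25a23 (10.4 and 6.60 FPKM), Crb3 (24.1 and 9.26), C3 (1.08 and 0.20) and Gpr108 (15.9 and 14.2). Crb3 was past 2-fold, with a log2 ratio of -1.29. Whether these differences are linked to that of Tnfsf9 was not tested.

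Tnfsf13, which encodes APRIL, a survival factor for plasma cells, stood at 2.27 FPKM in wild type cells and 0.62 FPKM in the resistant library. The wild type FPKM was 3.69 times the resistant one (interval 2.20 to 6.45, about 73.0 and 19.2 fragments), and the log2 ratio of -1.02 lay just past 2-fold. Tnfsf12, which encodes TWEAK, stood at 7.22 FPKM in wild type cells and 4.19 FPKM in the resistant library, 1.72 times lower in the latter (interval 1.37 to 2.16). The 2 genes are neighbours on the minus strand of chromosome 11 and share a locus with the read-through gene Tnfsfm13 (1.28 FPKM in wild type cells, 0.90 in the resistant library), which covers 983 bases of Tnfsf13 exons and 731 of Tnfsf12 exons. The sources used here do not give how fragments were split among these 3 genes, so the single values are uncertain. All 3 were lower in the resistant library. The antisense gene Tnfsf13os was listed at 0 in wild type cells and at 0.10 FPKM in the resistant library.

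Tnf itself was close to the lowest detectable level. It stood at 0.06 FPKM in wild type cells and 0.44 FPKM in the resistant library, which are about 2.0 and 15.0 fragments, and the ratio of 7.75 has an interval of 1.80 to 70.0. Lta, the neighbouring lymphotoxin alpha gene, was at about 1 fragment in each library (0.03 and 0.04 FPKM), and Ltb was listed at 0 in both. Tnfsf15 (TL1A) stood at 0.12 and 0.36 FPKM, about 8.97 and 26.9 fragments, a ratio of 3.10 with an interval of 1.41 to 7.51. In the opposite direction, Tnfsf13b (BAFF) stood at 0.27 FPKM in wild type cells and 0.05 in the resistant library. Tnfsf10, the gene of TRAIL, was listed at 0 in wild type cells and at 0.01 FPKM, about 1.00 fragment, in the resistant library, as was Tnfsf18 at 0 and 0.02. Fasl, Tnfsf4, Tnfsf8, Tnfsf11 and Tnfsf14 were listed at 0 in both.

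Known ligand and receptor pairs were read in both libraries. Several genes are in more than 1 pair, among them Tnfsf10, Tnf, Tnfrsf1a and Ltbr. Most ligand genes, like most genes, were under 1 FPKM, so the counts of pairs are no result about these cells. Of 20 pairs, 9 had a measured receptor and a ligand under 1 FPKM, 2 had a measured ligand alone, 7 had neither and 2 had both. TRAIL receptor genes, the TNF receptor genes, Ltbr and Tnfrsf11a belong to the first kind, with RANKL (Tnfsf11) listed at 0 in both libraries. The 2 pairs with both sides measured were TWEAK with Fn14 and 4-1BB ligand with 4-1BB. In the first, the ligand was lower and the receptor higher in the resistant library. In the second the ligand was lower, and the receptor differed by less than counting error. RNA of these cultures says nothing of ligand supplied by other cells in a tumour.

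**Figure D2:**
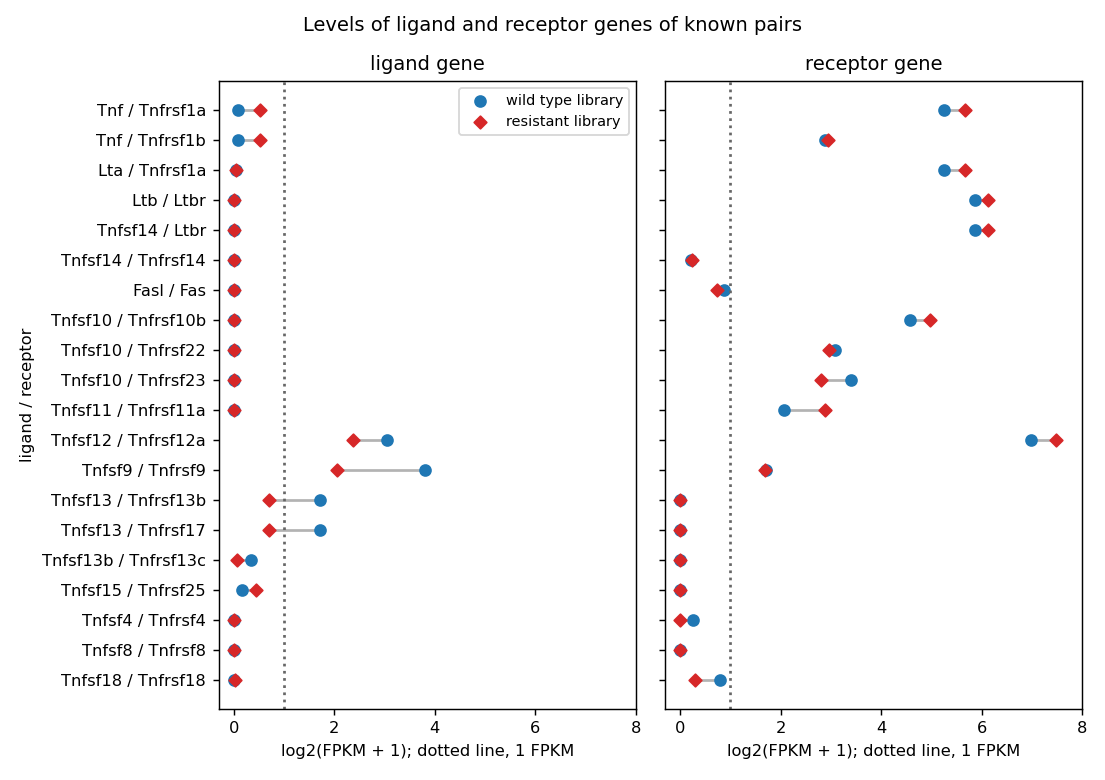
log2(FPKM + 1) of the ligand gene (left) and receptor gene (right) of 20 known pairs in the wild type library (circles) and the resistant library (diamonds), with a gene drawn once for each pair it is in and no error bars. In 9 pairs the receptor alone lies past the dotted line at 1 FPKM, and Tnfsf12 with Tnfrsf12a and Tnfsf9 with Tnfrsf9 are the 2 pairs with both sides past it.

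Among executioner caspases, Casp6 stood at 7.17 FPKM in wild type cells and 9.91 FPKM in the resistant library, a ratio of 1.38 (interval 1.16 to 1.65). Initiator caspases all lay within 2-fold. Casp8, which is activated at death receptors, stood at 20.3 FPKM in wild type cells and 25.3 FPKM in the resistant library, a ratio of 1.25 (interval 1.15 to 1.35). Casp9, which is activated by cytochrome c and APAF1 on the mitochondrial route, stood at 3.48 and 5.00 FPKM, a ratio of 1.43 (interval 1.24 to 1.66). Casp2, which is activated on the PIDDosome, was lower in the resistant library, at 11.8 FPKM in wild type cells and 9.06 FPKM in the resistant library. Casp14, a caspase of the epidermis, and Casp16 were listed at 0 in both. Of the 7 measured caspases, 5 had a log2 ratio above 0 and 2 below, with a median of 0.42. Over all 12193 measured genes 6188 lay above 0 and 6005 below, and a split of 7 genes is no result about caspases.

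**Figure D3:**
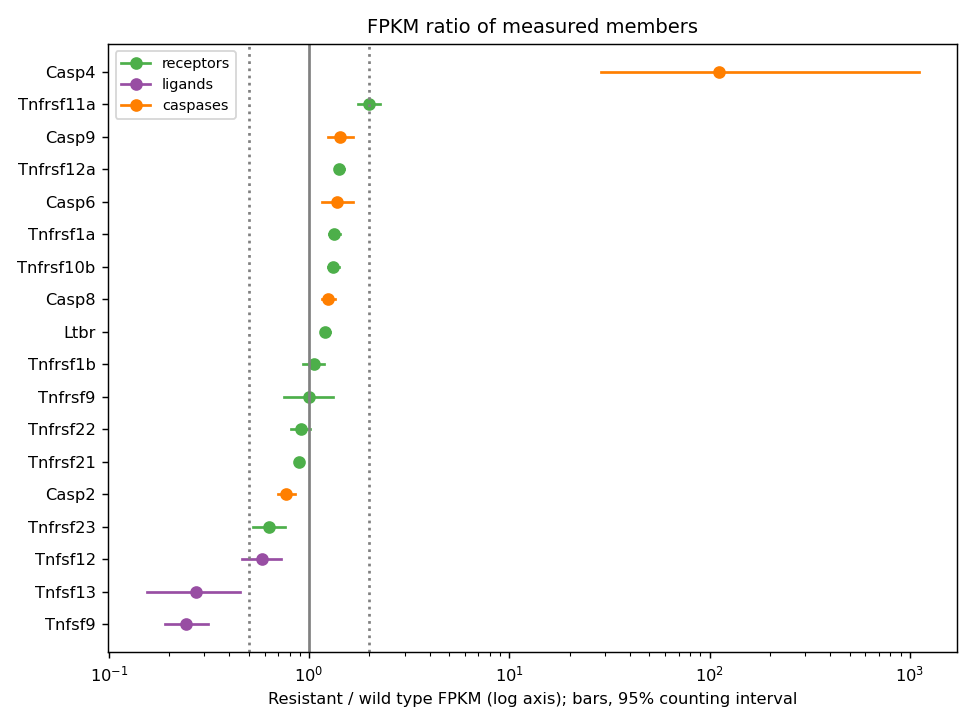
Ratio of resistant to wild type FPKM (log axis) of 18 of the 20 measured genes, with bars for the 95% counting interval and dotted lines at 2-fold. The intervals of Tnfrsf1b, Tnfrsf9 and Tnfrsf22 include 1 and those of the other 15 do not, and that of Casp4 runs from 28.7 to 1109.

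For 17 of the 20 genes the counting interval left out 1. The share over all measured genes was not worked out, so this count is no result about the family. For the well counted receptors that meant ratios as small as 1.20 for Ltbr (interval 1.14 to 1.27) and 0.89 for Tnfrsf21 (0.86 to 0.93). Differences of that size between 2 single cultures cannot be told apart from variation between cultures, which was not measured.

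Genes that carry the signal from these receptors were all measured, 31 of 31, and most lay within 2-fold. Fadd, the adaptor that recruits caspase-8 to death receptors, was at least 2-fold lower in the resistant library, at 3.95 FPKM in wild type cells and 1.38 FPKM in the resistant library. Map3k14, the NIK kinase of the non-canonical NF-kB pathway (1.52 against 4.47 FPKM, wild type first), and Birc3, the ubiquitin ligase cIAP2 (2.94 against 7.07), were at least 2-fold higher. Those 2 of 31 higher (6.45%) and 1 of 31 lower (3.23%) are no more than the share among all measured genes, and the list's median was -0.21. The highest levels in the list were those of Traf4 (39.5 FPKM in wild type cells, 71.6 in the resistant library), Tnip1 (27.5 and 51.3) and Sharpin (27.5 and 43.6), all within 2-fold.

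Of 18 genes that activate or inhibit caspases, 13 were measured, and Aim2 stood out with 0.97 FPKM in wild type cells and 27.9 FPKM in the resistant library, a log2 ratio of 3.87. Aim2 encodes a sensor of DNA in the cytosol that builds an inflammasome with the adaptor Pycard and caspase-1. Pycard was under 1 FPKM in both libraries, at 0.14 in wild type cells and 0.01 in resistant cells, and the sensor gene Nlrp3 was listed at 0 in both. Casp8ap2, a nuclear protein that can bind caspase-8, was at least 2-fold lower (8.49 against 3.47 FPKM, wild type first). The highest levels were those of Birc5, which encodes survivin (155 FPKM in wild type cells and 146 in the resistant library), Cycs, cytochrome c (89.8 and 134), and Htra2 (20.4 and 36.1). The median of the list was -0.09, with 1 gene higher and 1 lower by 2-fold. Those 1 of 13 each way (7.69%) are close to the 7.90% and 8.37% of all measured genes. The count is no result about the list.

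Among 16 measured caspase substrates and genes of lytic cell death, Il18, the cytokine gene whose product inflammatory caspases cleave, was at least 2-fold higher in the resistant library (0.38 against 1.99 FPKM, wild type first). Acin1, which encodes a nuclear protein cleaved in apoptosis, was at least 2-fold lower (52.6 against 21.6 FPKM). Gsdmd, the gasdermin gene, stood at 50.0 FPKM in wild type cells and 82.9 FPKM in the resistant library, within 2-fold, and Il1b was listed at 0 in both. Lmna (294 and 227 FPKM) and Sptan1 (54.4 and 56.6) had the other highest levels. The median was 0.02, the same to 2 decimals as over all measured genes. The 1 of 16 higher and 1 of 16 lower (6.25% each) are close to the 7.90% and 8.37% of all measured genes. That count is no result about the list either.

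NF-kB target genes of the kind TNF induces were more often higher in the resistant library. Of 22 measured, 7 were at least 2-fold higher (31.8%, beside 7.90% of all measured genes), none were 2-fold lower, and the median log2 ratio was 0.75. The 7 were the chemokine genes Ccl20 (6.25 FPKM in wild type cells, 381 in the resistant library), Ccl2 (1.28 and 9.25), Cxcl2 (0.35 and 4.59) and Cxcl1 (7.13 and 15.5), the adhesion gene Icam1 (12.0 and 33.0), the early response gene Ier3 (57.7 and 141) and Birc3. The inhibitor gene Nfkbia, itself a target, stood at 14.8 and 14.9 FPKM. This list shares Birc3, Traf1, Tnfaip3 and Tnip1 with the signalling list and was chosen with earlier results of these data known, so its direction is not independent evidence. Vcam1 also had one of the highest levels, at 47.6 FPKM in wild type cells and 84.3 FPKM in the resistant library.

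**Figure D4:**
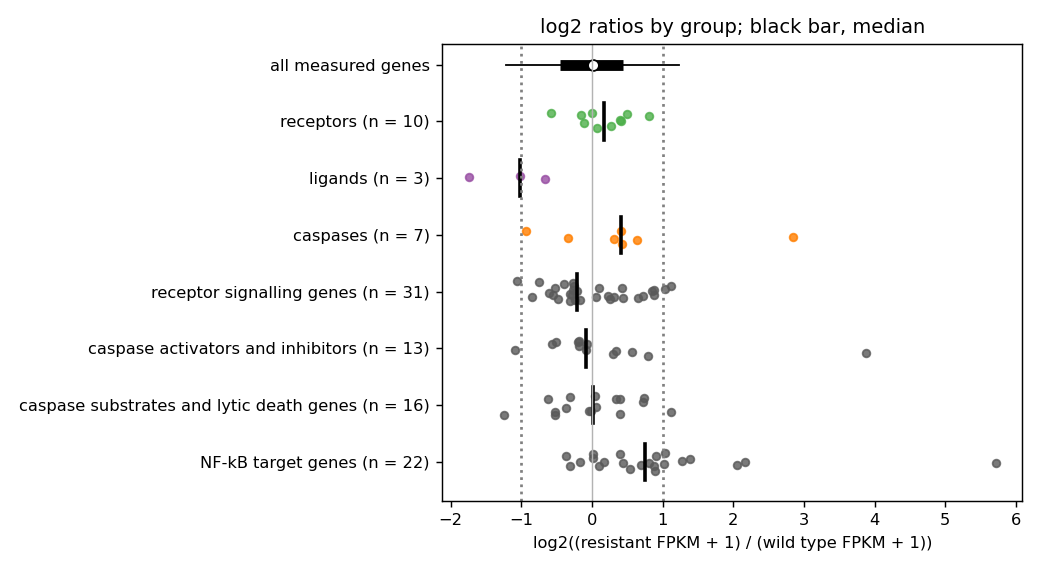
log2 ratio of each measured gene (points) by group, with the group median as a black bar and, for all 12193 measured genes, the median (open circle), the 25th to 75th percentile (thick line) and the 5th to 95th (thin line); dotted lines mark 2-fold. The 3 ligands lie below 0, the receptors lie between -0.59 and 0.80, and Casp4 (2.84), Aim2 (3.87) and Ccl20 (5.72) lie far to the right.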

How the data were processed

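RNA of 1 wild type and 1 resistant library was sequenced, per the labels. HISAT2, StringTie and GRCm38 appear in the submitters' processing notes, without roles or versions. The authors deposited FPKM values, 1 per gene and library; the header names no unit, and FPKM was read from the values. For single-transcript genes of 1000 to 8000 bases, low values multiplied by length (160 bases taken off) lay within 0.1 of whole fragments for 93.0% of 1632 values in the wild type library and 94.1% of 1686 in the other. The deposited log2 fold change, test score, p-value and q-value are the authors' own, per the file headers.

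A fragment at 1 kb of remaining length equalled 0.0418 FPKM in wild type cells, and 0.0432 in resistant cells. Each gene's fragments were estimated from its longest protein-coding GENCODE M21 transcript (GRCm38), and intervals (Clopper-Pearson on both libraries' fragments) cover counting error only. Values of rows with the same symbol were added. Left out were 13 rows marked by the authors as failed or too deep, none of them in the family. A pseudocount of 1 and a filter of 1 FPKM were used. Every family gene reaching 1 FPKM was named, and from each other list all genes past 2-fold and the 3 with the highest mean, except 2 family genes and 1 gene of another list, which are not reported here but are included in the counts and medians. Nfkbia, Pycard, Nlrp3 and Il1b were named after their values were seen. Members and lists were chosen with earlier results of these data known. Similar transcripts were sought with BLAST 2.17.0+. The steps were tested on simulated data. Versions were Python 3.11.15, numpy 2.4.6, pandas 2.3.3, matplotlib 3.10.9 and scipy 1.17.1.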

Additional observations from a re-analysis of the deposited data

How the results depend on the processing

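Casp4 was the only family gene at least 2-fold higher under every setting tried, and still passed a threshold of 4-fold. The count of genes at least 2-fold lower was 2, but 1 (Tnfsf9) both with a filter of 5 FPKM and with a pseudocount of 5, and 0 at a threshold of 4-fold. The share of all genes that were lower moved too, from 8.37% to 7.84% with that filter, 2.44% with that pseudocount and 1.05% at 4-fold. With the resistant library rescaled to the same upper quartile it was 3, and the share of all genes 9.74%. At a pseudocount of 5 the log2 ratio of Casp4 was 1.19 and of Tnfsf9 -1.14, and at 0.1 that of Casp4 was 5.39. The median of the ligands was -1.02, and -1.73 at a pseudocount of 0.1, -0.41 at 5, -1.20 at a filter of 5 FPKM and 0 without a filter. Without a filter the medians of all family genes and of the receptors were 0 too, since most genes are near 0, and that of NF-kB targets was 0.62. At a pseudocount of 5 the medians were 0.50 for NF-kB targets and 0.26 for caspases, and caspases stood at 0.31 with a filter of 5 FPKM. Of 120 values for single genes under these settings, 113 stayed inside a counting interval for the log2 ratio. That interval pairs opposite ends of separate 95% intervals of the 2 libraries. It is wider than the ratio interval for well counted genes such as Ltbr, so 113 is no count against the ratio intervals given above. For 20 of the 120 values rows with the same symbol were not added, and for another 20 the failed rows were kept. Those settings could not move any family gene, since no family symbol is repeated and none was marked as failed. The 113 therefore include values that could not have differed. The sign changed for 1 value, Tnfrsf1b at -0.01 with the upper quartile rescaled. The ratio without a pseudocount and a limit to protein-coding genes, added after the data had been seen, left the same 3 genes past 2-fold. With the longest annotated transcript as its length, the lower limit for Casp4 was 34.2. Depth limits what can be said of the 29 genes under 1 FPKM, and a value listed at 0 is not shown to be absent.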
